A study of Homo sapiens with 12 samples.

Results

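A pair of human cell lines grown from squamous cell carcinomas of the head and neck that carry HPV, UM-SCC-47 and UPCI-SCC-090, were compared with each other while both were under JQ1. The compared members are the 6 JQ1 libraries of the 12 libraries in the series, chosen by their cell line and treatment labels, with 3 libraries of UM-SCC-47 and 3 of UPCI-SCC-090. Cells of both lines had been kept for 72 h in 500 nM JQ1, and the 6 remaining libraries, 3 per line, came from cells kept for the same time in 0.1% dimethyl sulfoxide (DMSO), the solvent. Both lines are HPV-positive, no label gives a genetic alteration, and each line stems from a single patient's tumor, so a difference between the lines cannot be told apart from a difference between those tumors or between the cultures. The replicates of a group are labelled as 3 repeats, each run on 2 lanes, and no label says whether they were separate cultures, so p-values measure only the spread between these libraries, which may be technical.

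JQ1 is a small molecule that occupies the acetyl-lysine pocket of the bromodomain and extraterminal (BET) proteins. These proteins read acetylated histones at promoters and enhancers and help bring the elongation kinase P-TEFb to RNA polymerase II, so genes that rest on strong enhancers, such as those of cell identity, are known to be sensitive to the drug. The question of the comparison is which identity genes still separate the lines when BET proteins are blocked, and how far. A gene is called here when its adjusted p (edgeR quasi-likelihood F test, Benjamini-Hochberg over all genes tested) is under 0.05, and the log2 difference is always UPCI-SCC-090 minus UM-SCC-47, so a negative value means higher in UM-SCC-47. A gene that is not called is not shown to be equal. Levels are in CPM, estimated counts brought to a common library total and scaled over the 6 libraries of a treatment, which permits comparing a gene between lines but not 1 gene with another.

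As a list, squamous epithelial markers had counts in both lines under JQ1. All 14 markers on the list (KRT5, KRT14, TP63, CDH1 and others) were tested, and their summed level was 3466 to 3752 CPM in UM-SCC-47 and 6201 to 10479 CPM in UPCI-SCC-090. Of them 5 were higher in UPCI-SCC-090, 2 in UM-SCC-47 and 7 were not called, and the 5 became 3 without UM-SCC-47 replicate 1. KRT5 and KRT14 were low in UPCI-SCC-090, as given with the keratins below, so its sum rests on other members. Listed markers of other cell types summed to lower levels. A sum is led by its most abundant genes and CPM does not compare 1 gene with another, so the sums are a description only. The summed level of 16 immune cell markers was 31.8 to 43.4 CPM in UM-SCC-47 and 6.19 to 13.6 CPM in UPCI-SCC-090, with 5 of the 16 at 0 in all 6 libraries, that of 9 fibroblast markers was 5.3 to 6.31 CPM in UM-SCC-47 and 2.3 to 4.98 CPM in UPCI-SCC-090, and that of 8 endothelial markers was 3.11 to 4.81 CPM in UM-SCC-47 and 0.316 to 0.601 CPM in UPCI-SCC-090. The sum of 6 melanocyte markers was 19.8 to 33.5 CPM in UM-SCC-47 and 3.82 to 12.5 CPM in UPCI-SCC-090. For 13 neural and neuroendocrine markers it was 122 to 184 CPM in UM-SCC-47 and 155 to 298 CPM in UPCI-SCC-090, of which TUBB3, a tubulin, made up most at 171, 180.3 and 119 CPM and 173, 288 and 151 CPM and was not called, and 4 of the 13 were at 0 in all 6 libraries. The part of these markers in the results was not tested. The 6 libraries held 20430960 to 30788657 estimated counts. Ribosomal protein genes took 6.75% to 9.71% of the counts in UM-SCC-47 and 11.4% to 12.2% in UPCI-SCC-090. Libraries of a line differed in how counts followed the GC content of genes, from -0.415 to 0.319 log2 per 10 GC points in UM-SCC-47 and from -0.560 to 0.598 in UPCI-SCC-090, with the lowest slope in replicate 3 and the highest in replicate 2 of each line. The part of these trends in the results was not tested beyond the settings given at the end.

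With JQ1 the lines differed at 4231 of 13303 genes tested (31.8%), of which 1838 (13.8% of the genes tested) were higher in UPCI-SCC-090 and 2393 (18%) in UM-SCC-47. The 1838 fell to 1065 without UM-SCC-47 replicate 1 and to 1129 without UPCI-SCC-090 replicate 1. Counts of gene lists given below are to be read beside the shares of all genes, 13.8% and 18%. In these bulk libraries a lower level may mean fewer cells that express a gene or less RNA per cell, which cannot be told apart. Of the called genes 4144 exceeded a log2 difference of 1 and 1766 (13.3% of the genes tested) exceeded 3. Smaller differences were seldom called at this spread, so these sizes describe called genes only. Over all genes tested with JQ1 the median absolute log2 difference was 0.792. Over the 9 pairs that set a library of either line against the other, the Pearson r of log2 CPM ran from 0.719 to 0.790 with JQ1 and from 0.710 to 0.747 with DMSO, while libraries of the same line under JQ1 correlated at 0.916 to 0.978. With DMSO, 6778 of 14108 genes were called (48%). The smaller count with JQ1 came with a larger spread between libraries, as the median standard error of the log2 difference was 0.431 with JQ1 and 0.270 with DMSO over the 13157 genes tested in both states, whereas the median absolute difference itself was 0.786 and 0.745.

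Most genes called with JQ1 were also called with DMSO on the same side. Of the genes tested in both states 3481 (26.5%) were called in both with the same line higher, which is 83.9% of the genes called with JQ1 and 56.7% of those called with DMSO, and such genes are named kept below. They split into 1449 higher in UPCI-SCC-090 and 2032 higher in UM-SCC-47, and 1293 of them exceeded a log2 difference of 3 in both states. Only 55 genes (0.418%) were called in both states with opposite lines higher. The JQ1 and DMSO comparisons have no library in common, and over the 13157 genes their log2 differences had a Pearson r of 0.897 and a Spearman correlation of 0.783, given as a description because genes are not independent replicates. Of the 2605 genes called with DMSO alone, 509 still differed by more than 1 in the same direction with JQ1. The change of the line difference, tested as an interaction over all 12 libraries, was called for 945 of 14396 genes (6.56%), with 422 shifted toward UPCI-SCC-090 (2.93%) and 523 toward UM-SCC-47 (3.63%). The 945 became 463, 540 and 467 without UM-SCC-47 DMSO replicates 1, 2 and 3, and 499 without JQ1 replicate 1 of UM-SCC-47. Leaving out JQ1 replicate 2 of UPCI-SCC-090 raised it to 1775.

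**Figure D1:**
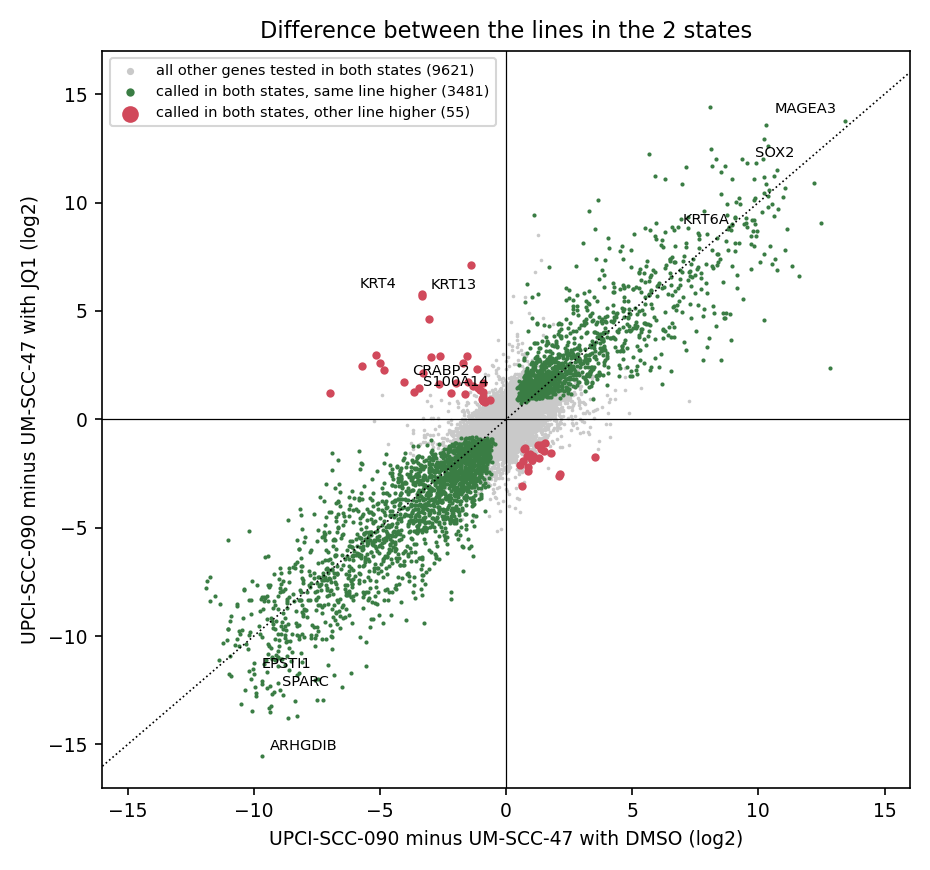
Log2 difference between UPCI-SCC-090 and UM-SCC-47 with DMSO (x axis) and with JQ1 (y axis), each point 1 of 13157 genes tested in both states. The 3481 kept genes lie along the dotted line of equal difference, and the 55 genes whose higher line changed, KRT4 and KRT13 among them, lie in the upper left and lower right.

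Some genes were read in a single line under JQ1. Of the tested genes, 82 had no count in the 3 UM-SCC-47 JQ1 libraries and 153 had none in the 3 UPCI-SCC-090 JQ1 libraries. A gene enters the test when the libraries of either line reach the minimum count, so such a gene had to differ once its other line passed. On the UM-SCC-47 side ARHGDIB, which encodes a GDP dissociation inhibitor of small GTPases, stood at 218, 281 and 187 CPM and had no count in UPCI-SCC-090, so that its level in UM-SCC-47 was at least 6610.1-fold higher when 3 counts, summed over the 3 libraries, are taken as the limit. SERPING1, the inhibitor of the first complement component, stood at 59.9, 54.5 and 52 CPM against no count, at least 1640.1-fold. MUC16, the mucin that carries the CA125 epitope, stood at 15.8, 13.3 and 23.6 CPM against no count, at least 514-fold. These 3 genes were also called with DMSO, where their mean levels in UPCI-SCC-090 were 0.414, 0.0565 and 0.0823 CPM.

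Some genes of germ cells and of fetal tissues were among those higher in UPCI-SCC-090, as was the heat shock gene CRYAB. MAGEA3, a melanoma-associated antigen normally limited to germ cells, stood at 60.7, 86.9 and 50.7 CPM with no count in any UM-SCC-47 library of either treatment, and was at least 1436-fold higher. It has a close copy, MAGEA6, to which reads can also be assigned. PRAME, another such antigen, stood at 20.3, 24.4 and 15.2 CPM against no count with JQ1, at least 438-fold. CRYAB, a small heat shock protein, stood at 0.0353, 0.109 and 0.146 CPM in UM-SCC-47 and 1031, 1509.5 and 946 CPM in UPCI-SCC-090, a log2 difference of 13.57 (SE 0.57, adjusted p = 1.12e-05). GPC3, a glypican of fetal tissues, stood at 0.212, 0 and 0.146 CPM and 500.0, 557 and 402 CPM in the same order (log2 difference 11.82). In none of these 4 genes did the libraries of the lines overlap, which held for 46.1% of all genes tested, and all 4 were kept. Of the 34 listed cancer-testis genes that were measured only 3 passed the filter on low counts, which a gene can do through 1 line alone, so their direction is no support for the list. Of 16 oncofetal and imprinted genes tested, 3 were higher in UPCI-SCC-090 and 5 in UM-SCC-47, beside 13.8% and 18% of all genes. The 3 became 1 and the 5 became 3 without replicate 1 of either line.

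Interferon-stimulated genes lay with UM-SCC-47. They are switched on when interferon receptors activate a complex with STAT2 and IRF9, which binds the interferon-stimulated response element, and their products block viruses and help present antigens. Of 48 listed genes that were measured, 45 were tested with JQ1, and 38 were higher in UM-SCC-47, 0 in UPCI-SCC-090 and 7 were not called, beside 18% higher in UM-SCC-47 over all genes. Their median log2 difference was -5.42 against -0.033 over all genes tested, and all 38 were kept. To show the element itself, the 150 bases before the start of 4 of them are given from RefSeq (GRCh38.p14), with the motif searched in capitals. The motif is GAAA, any 2 bases and GAAA again, or on the opposite strand TTTC, any 2 bases and TTTC, and overlapping matches are merged.
ISG15, chr1:1013347-1013496, plus strand: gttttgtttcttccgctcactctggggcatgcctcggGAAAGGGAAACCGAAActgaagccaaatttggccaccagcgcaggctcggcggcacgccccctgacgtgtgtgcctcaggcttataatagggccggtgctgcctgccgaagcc
IFIT1, chr10:89392473-89392622, plus strand: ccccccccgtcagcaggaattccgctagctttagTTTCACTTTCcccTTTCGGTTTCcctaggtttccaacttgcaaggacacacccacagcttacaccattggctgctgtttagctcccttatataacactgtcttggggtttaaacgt
EPSTI1, chr13:42992242-42992391, minus strand: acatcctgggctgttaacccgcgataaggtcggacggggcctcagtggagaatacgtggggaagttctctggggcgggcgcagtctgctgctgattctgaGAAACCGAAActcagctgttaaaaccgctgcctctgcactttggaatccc
BST2, chr19:17405631-17405780, minus strand: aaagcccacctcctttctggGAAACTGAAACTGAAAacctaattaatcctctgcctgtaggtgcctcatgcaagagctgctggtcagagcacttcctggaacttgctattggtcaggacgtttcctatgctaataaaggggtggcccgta
In the 250 bases before the start, this motif was present for 25 of the 37 listed interferon genes with a RefSeq promoter (67.6%), for 20 of the 28 of them that were higher in UM-SCC-47 with JQ1, and in 1061 of 35116 promoters of all genes (3.02%). A match of letters is a description and not a bound site.

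ISG15, a ubiquitin-like modifier, stood at 149, 201 and 107 CPM in UM-SCC-47 and 3.77, 4.89 and 2.94 CPM in UPCI-SCC-090 with JQ1, a log2 difference of -5.30 (SE 0.41, adjusted p = 5.92e-05). IFIT1, which binds foreign RNA caps, stood at 16.7, 13.4 and 28.2 CPM and 0.213, 0.0429 and 0.41 CPM (log2 difference -6.38). Both genes were higher in every UM-SCC-47 library than in any UPCI-SCC-090 library, as were 25.4% of all genes tested. EPSTI1 stood at 15.4, 17.1 and 18 CPM and had no count in UPCI-SCC-090, at least 487-fold higher, and IFIT3 stood at 20.8, 15.8 and 58.7 CPM against no count, at least 910.0-fold. IFIT2 had 2 counts over the 3 UPCI-SCC-090 libraries against 83.1, 27.3 and 233 CPM in UM-SCC-47, a ratio of 5003 with a 95% counting interval of 1385 to 41322 that covers counting error only. MX1, a dynamin-like antiviral GTPase, differed by -7.28 (SE 0.59) and BST2, the virion tether, by -1.34 (SE 0.34, adjusted p = 0.0159). BST2 lost its call without replicate 1 of UM-SCC-47 (-1.38, adjusted p = 0.0587) or of UPCI-SCC-090 (-1.27, adjusted p = 0.0858).

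Among factors that drive these genes, IRF7 and IRF1 were called and STAT2 and IRF9 were not. IRF7 differed by -2.90 and IRF1 by -2.80, and the libraries of the lines did not overlap in either gene, as in 46.1% of all genes tested. STAT2 stood at 83.2, 84.3 and 81.5 CPM and 69.3, 98.1 and 47.5 CPM, a difference of -0.21 (SE 0.33, adjusted p = 0.679), and IRF9 at 48.4, 65.1 and 45.2 CPM and 62.1, 88.5 and 47.6 CPM, a difference of 0.32 (SE 0.34, adjusted p = 0.534), and the libraries of the lines overlapped in both genes. STING1, the adaptor of cytosolic DNA sensing, stood at 45.8, 52 and 38.6 CPM in UM-SCC-47 and had 3 counts in UPCI-SCC-090, a ratio of 1326 (95% counting interval 453 to 6432). OAS1, which makes the second messenger for RNase L, was the listed gene whose line difference narrowed, from -6.90 with DMSO to -1.57 with JQ1, a change of 5.34 (SE 0.52, adjusted p = 0.000276), and its JQ1 call was lost without replicate 1 of UM-SCC-47 (-1.61, adjusted p = 0.0511) or of UPCI-SCC-090 (-1.52, adjusted p = 0.0862) and in a fit with a correction for the GC content of genes, named GC correction below (-1.25, adjusted p = 0.169). The difference of LGALS3BP, a secreted galectin-binding glycoprotein, widened on the UM-SCC-47 side, a change of -2.94 (SE 0.50, adjusted p = 0.00619).

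**Figure D2:**
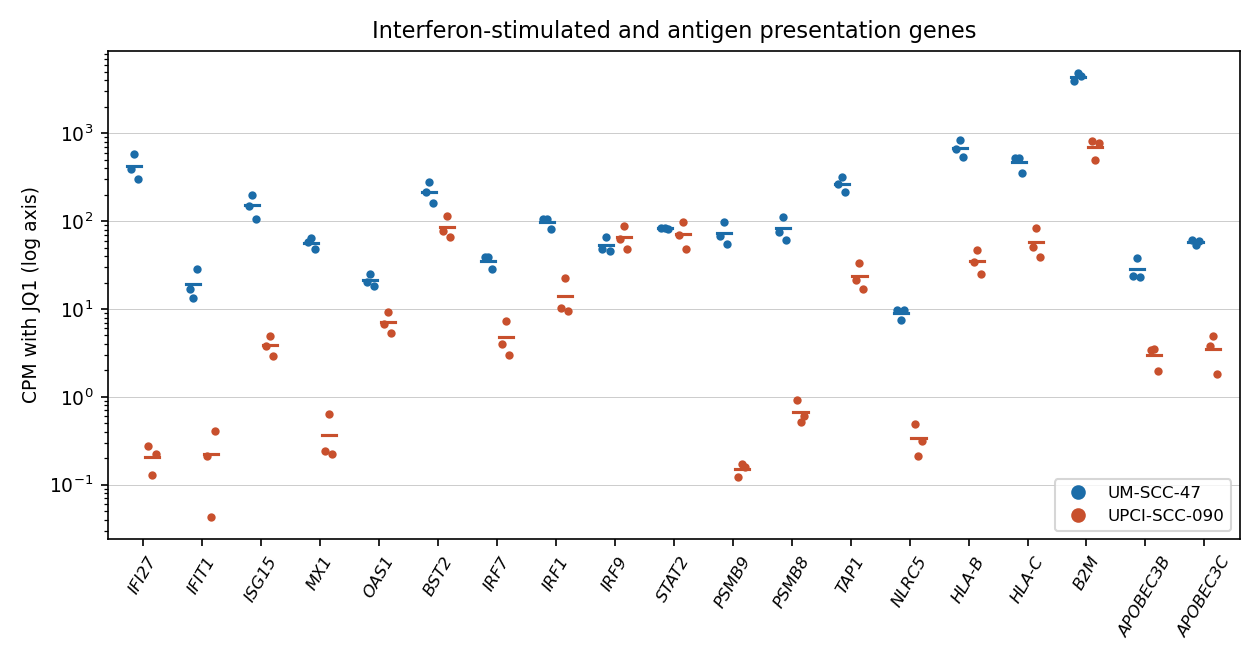
CPM with JQ1 (log axis) of interferon-stimulated, antigen presentation and APOBEC3 genes, with 1 point per library, 3 libraries per line, and a bar at the mean. UM-SCC-47 lies above UPCI-SCC-090 at every gene shown but IRF9 and STAT2, where the libraries of the lines overlap.

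Antigen presentation genes, which cut peptides and load them on HLA molecules, followed the same order. Of 31 listed genes 23 were tested, and 20 were higher in UM-SCC-47, 0 in UPCI-SCC-090, with a median log2 difference of -3.50. PSMB9 and PSMB8, subunits of the immunoproteasome, stood at 68.6, 97.6 and 54.6 and 75.8, 111 and 61.3 CPM in UM-SCC-47 and at 0.122, 0.172 and 0.158 and 0.913, 0.515 and 0.6 CPM in UPCI-SCC-090. Their log2 differences were -8.90 (SE 0.50) and -6.91 (SE 0.48), and the PSMB8 difference had grown from -3.37 with DMSO (change -3.53, adjusted p = 0.000913). The peptide transporter TAP1 differed by -3.48 and NLRC5, the activator of HLA class I genes, by -4.69. Among class I molecules HLA-B stood at 661, 842 and 539 CPM and 34.6, 46.5 and 25 CPM, and HLA-C at 519, 525 and 354 CPM and 50.8, 83.8 and 39.5 CPM, with log2 differences of -4.27 and -3.01. HLA genes are alike and vary between people, so the split of reads among them is uncertain. Their shared light chain B2M stood at 3926, 4853 and 4479 CPM and 822, 495 and 774 CPM (-2.66, SE 0.30). CD74, the invariant chain of class II molecules, stood at 47.5, 50.4 and 34.3 CPM with no count in UPCI-SCC-090, at least 1295-fold higher. The chaperones CALR and PDIA3 were not called, with differences of 0.22 (SE 0.33) and 0.54 (SE 0.24), although PDIA3 was called with the GC correction (0.52, adjusted p = 0.0312).

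The APOBEC3 cytidine deaminases, which mutate viral and tumor DNA and are tied to HPV-positive cancers, were split 6 to 1. APOBEC3B stood at 23.8, 37.9 and 23.4 CPM in UM-SCC-47 and 3.44, 3.52 and 1.96 CPM in UPCI-SCC-090 (log2 difference -3.25, SE 0.45, adjusted p = 0.000838). APOBEC3C stood at 61, 53.5 and 58.8 CPM and 3.83, 4.93 and 1.8 CPM (-4.04), and APOBEC3G at 5.68, 8.04 and 4.8 CPM against no count, at least 177-fold. APOBEC3D, APOBEC3F and APOBEC3H were also higher in UM-SCC-47, the last with its call lost without UPCI-SCC-090 replicate 1 (-2.19, adjusted p = 0.0636). APOBEC3A was the member higher in UPCI-SCC-090, at 0.67, 1.37 and 0.537 CPM against 0.0353, 0 and 0.146 CPM (3.72, SE 0.81), a low level in both lines, and it was not tested with DMSO, where its means were 0.342 CPM in UM-SCC-47 and 0.0656 CPM in UPCI-SCC-090. Its line difference changed by 6.06 (SE 1.14, adjusted p = 0.00949). The family's paralogs share sequence, so their reads may be split among them.

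Matrix, protease, integrin and laminin genes that were called lay mostly with UM-SCC-47. Of 24 tested matrix proteases and kallikreins 20 were higher in UM-SCC-47 and 3 in UPCI-SCC-090, of 22 collagens 13 and 2, of 29 integrins and laminins 14 and 1, and of 24 mesenchymal genes 16 and 3, beside 18% and 13.8% of all genes. The 2 collagens became 1 without UM-SCC-47 replicate 2. The 3 mesenchymal genes became 1 without replicate 1 of either line and 5 without UPCI-SCC-090 replicate 2. FN1, fibronectin, stood at 5569, 3549 and 4958 CPM in UM-SCC-47 and 5.26, 3.69 and 2.27 CPM in UPCI-SCC-090, a log2 difference of -10.29 (SE 0.52, adjusted p = 1.86e-05) that had been -5.57 with DMSO (change -4.71, adjusted p = 0.000108). SPARC, a collagen-binding matrix protein, stood at 1595, 2179 and 1301 CPM and 0.487, 0.0429 and 0.253 CPM (-12.57, SE 0.75). TIMP3, a protease inhibitor bound to the matrix, stood at 1059.9, 1197 and 905 CPM and 0.243, 0.0429 and 0.126 CPM (-12.78, SE 0.58). The libraries of the lines did not overlap in these 3 genes, as in 46.1% of all genes tested. KLK5, a kallikrein of skin shedding, stood at 1000.2, 1239.6 and 773 CPM and 0.396, 0 and 0.158 CPM, and COL5A1, a chain of collagen V, at 417, 308 and 400.0 CPM and 0.548, 0.515 and 0.221 CPM. Urokinase, PLAU, kept its direction with a smaller difference, -6.66 with DMSO and -3.84 with JQ1 (change 2.82, adjusted p = 0.00166). MMP14, the membrane-anchored collagenase, was higher in UPCI-SCC-090 with DMSO (1.32) and higher in UM-SCC-47 with JQ1 (-1.80, SE 0.42), a change of -3.14 (adjusted p = 0.00302). Its JQ1 call was lost without UPCI-SCC-090 replicate 1 (-1.76, adjusted p = 0.051). MMP11 stayed higher in UPCI-SCC-090, at 54.3, 100.1 and 31.4 CPM against 6.28, 6.23 and 4.66 CPM.

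Within the mesenchymal list, VIM, vimentin, the intermediate filament of mesenchymal cells, was higher in UPCI-SCC-090, at 196, 272 and 172 CPM against 34.1, 38.1 and 24.8 CPM (2.72, SE 0.33, adjusted p = 0.000396). CDH2, N-cadherin, stood at 87.8, 82.5 and 99 CPM in UM-SCC-47 and 116, 75.7 and 85.1 CPM in UPCI-SCC-090 and was not called with JQ1 (0.037, SE 0.28), although it had been higher in UPCI-SCC-090 with DMSO by 1.55 (change -1.48, adjusted p = 0.0107). CDH1, E-cadherin, was higher in UPCI-SCC-090 with JQ1 alone, at 659, 692 and 594 CPM and 1358, 1849 and 1169 CPM (1.17, SE 0.27, adjusted p = 0.011), and its line difference changed by 1.05 (adjusted p = 0.0267). Without UM-SCC-47 replicate 1 the CDH1 call was lost (1.19, adjusted p = 0.0584), as was that of its change (1.07, adjusted p = 0.0737). The call of its change was lost in 10 of 21 alternative settings, among them DESeq2 (1.06, adjusted p = 0.0747). The change of CDH2 was lost in 1, without both JQ1 replicates 3 (-1.37, adjusted p = 0.0546).

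The list of YAP and TEAD, the effectors of the Hippo pathway, holds their targets and also the factor TEAD2. Of its 27 genes tested 19 were higher in UM-SCC-47, with a median log2 difference of -2.77 with JQ1 and -1.71 with DMSO. YAP1 itself stood at 579.8, 446 and 752 CPM in UM-SCC-47 and 115, 39.4 and 153 CPM in UPCI-SCC-090 (-2.53, SE 0.50), whereas its paralog WWTR1 was not called (-0.55, SE 0.42). CCN1 and CCN2, secreted matricellular targets, stood at 516, 598 and 456 and 366, 407 and 358 CPM in UM-SCC-47 and at 18.5, 29 and 14.6 and 43.6, 50.4 and 41.1 CPM in UPCI-SCC-090. For CCN2 the higher line changed, since it differed by 0.63 with DMSO (adjusted p = 0.0295) and by -3.06 with JQ1 (adjusted p = 8.38e-05), a change of -3.68 (SE 0.23, adjusted p = 1.11e-05). AXL, a receptor kinase, was at 288, 283 and 256 CPM in UM-SCC-47 and at most 0.6 CPM in UPCI-SCC-090. ANKRD1 had 1 count in UPCI-SCC-090 against 43.7, 32.8 and 69.1 CPM in UM-SCC-47. TEAD2 was the listed gene higher in UPCI-SCC-090 (1.21, SE 0.35), and its call was lost without UM-SCC-47 replicate 1 (1.17, adjusted p = 0.114) or replicate 3 (1.08, adjusted p = 0.098) and without UPCI-SCC-090 replicate 1 (1.21, adjusted p = 0.1).

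HOX genes, which record the position of a tissue along the body axis, separated the lines in both directions and kept doing so under JQ1. Of 29 tested, 13 were higher in UM-SCC-47 and 10 in UPCI-SCC-090, beside 18% and 13.8% of all genes, and 22 were kept. Within the clusters the order differed from gene to gene. In the HOXD cluster HOXD10 stood at 3.6, 3.23 and 4.17 CPM and HOXD13 at 2.01, 1.97 and 1.6 CPM in UM-SCC-47, both with no count in UPCI-SCC-090, at least 108-fold and 54.9-fold higher. In the HOXB cluster HOXB3 stood at 15.3, 20.8 and 9.6 CPM in UPCI-SCC-090 with no count in UM-SCC-47, at least 329-fold higher, while HOXB9 had 1 count in UPCI-SCC-090 against 2.19, 2.02 and 1.99 CPM in UM-SCC-47. In the HOXA cluster HOXA2 and HOXA3 were higher in UM-SCC-47 (-2.61 and -3.14) and HOXA7 and HOXA9 in UPCI-SCC-090 (2.46 and 5.31), with HOXA9 at 0.599, 1.04 and 1.36 CPM and 42.2, 41.7 and 35.1 CPM. HOXA4, HOXA5 and HOXA10, which lie between them in the cluster or beside them, were not called (0.29, -0.21 and 0.29).

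**Figure D3:**
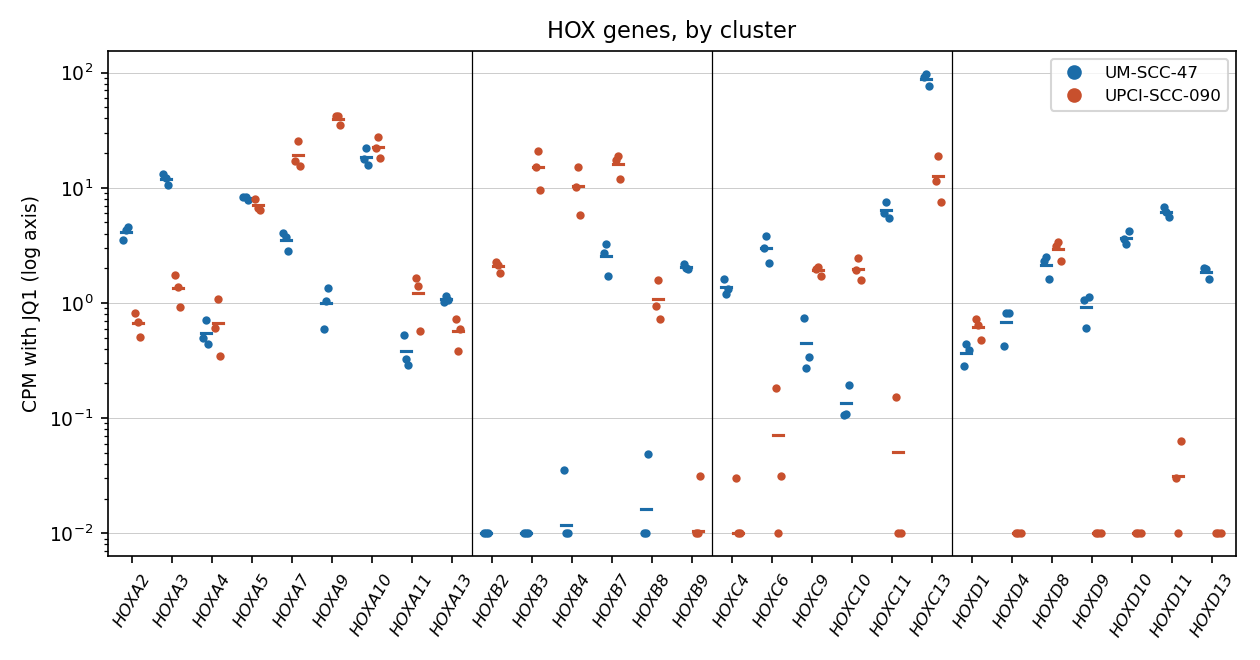
CPM with JQ1 (log axis) of 28 HOX genes, ordered by cluster and number, with 1 point per library and a bar at the mean, and libraries with no count drawn at 0.01 CPM. HOXB2, HOXB3 and HOXB4 lie with UPCI-SCC-090, and HOXD9, HOXD10, HOXD11 and HOXD13 lie with UM-SCC-47.

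Of 31 squamous lineage factors tested, 15 were higher in UPCI-SCC-090 and 5 in UM-SCC-47, beside 13.8% and 18% of all genes. The 5 were near that share and became 9 with the GC correction. SOX2, a stem cell and squamous lineage factor, stood at 211, 139 and 191 CPM in UPCI-SCC-090 and had 3 counts over the UM-SCC-47 libraries, a ratio of 4148 with a 95% counting interval of 1419 to 20116. ZNF750, which promotes terminal keratinocyte differentiation, stood at 9.25, 13.7 and 9 CPM with no count in UM-SCC-47, at least 232-fold higher. GRHL3, a Grainyhead factor of the epidermal barrier, was higher in UPCI-SCC-090 with JQ1 alone, at 6.66, 6.01 and 4.9 CPM and 33.1, 53.7 and 28.7 CPM (log2 difference 2.71 with JQ1 and -0.41 with DMSO, change 3.12, adjusted p = 0.000844). TP63, the master factor of squamous epithelium, stood at 41.3, 37 and 61.3 CPM in UM-SCC-47 and 242, 60.7 and 292 CPM in UPCI-SCC-090, so that replicate 2 of UPCI-SCC-090 lay within the UM-SCC-47 range, and it was called with JQ1 (2.09, SE 0.55, adjusted p = 0.0208) but not with DMSO (0.52, SE 0.34). The change of the TP63 difference was not called (1.64, adjusted p = 0.225). Its JQ1 call was lost without UM-SCC-47 replicate 1 (2.18, adjusted p = 0.0925) or replicate 2 (2.15, adjusted p = 0.0906) and without UPCI-SCC-090 replicate 1 (1.93, adjusted p = 0.0668) or replicate 3 (1.71, adjusted p = 0.0513). On the UM-SCC-47 side GATA3, a luminal and epidermal factor that is not on that list, stood at 21.5, 15.5 and 18.7 CPM with 1 count in UPCI-SCC-090, and EHF, SOX15 and BNC1 were also higher there, with log2 differences of -4.88, -3.46 and -3.92.

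Among 55 other homeobox and positional factors tested, 20 were higher in each line and 31 were kept. FEZF1, a forebrain factor, stood at 16.7, 16.2 and 9.34 CPM in UPCI-SCC-090 with no count in UM-SCC-47, at least 312-fold higher, and DLX5, a factor of craniofacial bone and cartilage, at 51.2, 77.2 and 42.2 CPM against 0.776, 0.601 and 0.388 CPM. Of the 21 transcription factors that the study's text singles out in tumors, 6 were higher in UM-SCC-47 with JQ1, 3 in UPCI-SCC-090 and 12 were not called. The shares of all genes were 18% and 13.8%, and the 3 were near the latter. The 3 became 1 without replicate 1 of either line and 5 without UPCI-SCC-090 replicate 2. TFAP2A, an AP-2 factor of ectoderm, differed by -2.51 (SE 0.35) with JQ1 and by -0.60 with DMSO (change -1.90, adjusted p = 0.007). TEAD4, EPAS1, PPARG, SMAD3 and FOSL1 were the others higher in UM-SCC-47 (-1.51, -2.23, -1.64, -1.68 and -1.99), and TP73 lay with TP63 on the other side (2.50). TEAD4 lost its call without UM-SCC-47 replicate 1 (-1.51, adjusted p = 0.0649) or replicate 3 (-1.58, adjusted p = 0.0502) and without UPCI-SCC-090 replicate 1 (-1.44, adjusted p = 0.113), and PPARG with the GC correction (-1.49, adjusted p = 0.0615). E2F1, GRHL2 and FOSL2 were not called, with differences of -0.061 (SE 0.42), 0.013 (SE 0.27) and 0.008 (SE 0.37).

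Keratins, the intermediate filaments that mark the kind and stage of an epithelium, held both kept and reversed differences. The simple-epithelium pair KRT8 and KRT18 stayed higher in UM-SCC-47. KRT8 stood at 26484, 31553 and 22252 CPM in UM-SCC-47 and 1073, 1695 and 846 CPM in UPCI-SCC-090 (-4.47, SE 0.37), against -2.18 with DMSO, and KRT18 at 13734, 19575 and 11399.9 CPM and 168, 221 and 126 CPM (-6.44, SE 0.41), against -3.32 with DMSO. Both differences had grown, by -2.30 (adjusted p = 0.006) and -3.13 (adjusted p = 0.00117). KRT19 was not called in either state (0.81 with JQ1, SE 0.34, and -0.28 with DMSO), although it was called with JQ1 without UM-SCC-47 replicate 2 (1.00, adjusted p = 0.0426) and with the GC correction (1.01, adjusted p = 0.00616).

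Of 17 stratified-epithelium keratins tested with JQ1, 10 were higher in UPCI-SCC-090 and 6 in UM-SCC-47, against 5 and 11 of 18 with DMSO, and the change was called toward UPCI-SCC-090 for 10 of them and toward UM-SCC-47 for 3, beside 2.93% and 3.63% of all genes. The basal-layer pair KRT5 and KRT14 stayed higher in UM-SCC-47, KRT5 at 162, 196 and 138 CPM against 5.9, 10.7 and 6.09 CPM (-4.45, SE 0.39) and KRT14 at 238, 258 and 229 CPM against 0.609, 0.858 and 0.758 CPM (-8.34, SE 0.36). KRT17, a keratin of hair follicle and wound edge, was kept on the same side at 1786, 2094 and 1391 CPM against 61.6, 93 and 61.3 CPM. The stress and wound keratin KRT6A was kept on the UPCI-SCC-090 side, at 24.2, 27.6 and 20.9 CPM in UM-SCC-47 and 8553, 13878 and 8163 CPM in UPCI-SCC-090 (8.72, SE 0.41). KRT6C had 1 count in UM-SCC-47 against 357, 622 and 328 CPM in UPCI-SCC-090. KRT6A, KRT6B and KRT6C are nearly identical, as are parts of KRT14, KRT16 and KRT17, so the split of reads among them is uncertain.

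KRT4 and KRT13, the keratin pair of the upper layers of wet stratified epithelium such as the lining of the mouth, changed sides. With DMSO KRT4 stood at 61.3, 61.7 and 49.7 CPM in UM-SCC-47 and 4.87, 7.2 and 5.29 CPM in UPCI-SCC-090, and with JQ1 at 3.88, 5.47 and 3.79 CPM and 158, 387 and 167 CPM. KRT13 stood at 402, 425 and 360.2 CPM and 31.4, 47.3 and 40.1 CPM with DMSO and at 16.4, 17.1 and 15.1 CPM and 784, 1172 and 566 CPM with JQ1. In both genes every UM-SCC-47 library lay above every UPCI-SCC-090 library with DMSO and below every one with JQ1. The order with JQ1 held for 20.7% of all genes tested. The log2 difference of KRT4 went from -3.32 (SE 0.25) to 5.76 (SE 0.50), a change of 9.06 (adjusted p = 8.59e-06), and that of KRT13 from -3.32 (SE 0.21) to 5.70 (SE 0.38), a change of 9.01 (adjusted p = 8.57e-07). KRT15, a basal keratin, and KRT16, an activation keratin, differed by 0.18 (not called) and 0.84 (called) with DMSO and by more with JQ1, KRT15 at 52.3, 56.3 and 46.4 CPM against 976, 1642 and 808 CPM (4.47) and KRT16 at 18.7, 18.7 and 18.2 CPM against 1222, 1939.9 and 1014 CPM (6.23). The changes of KRT15 and KRT16 were 4.28 (adjusted p = 8.56e-05) and 5.39 (adjusted p = 1.94e-05).

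**Figure D4:**
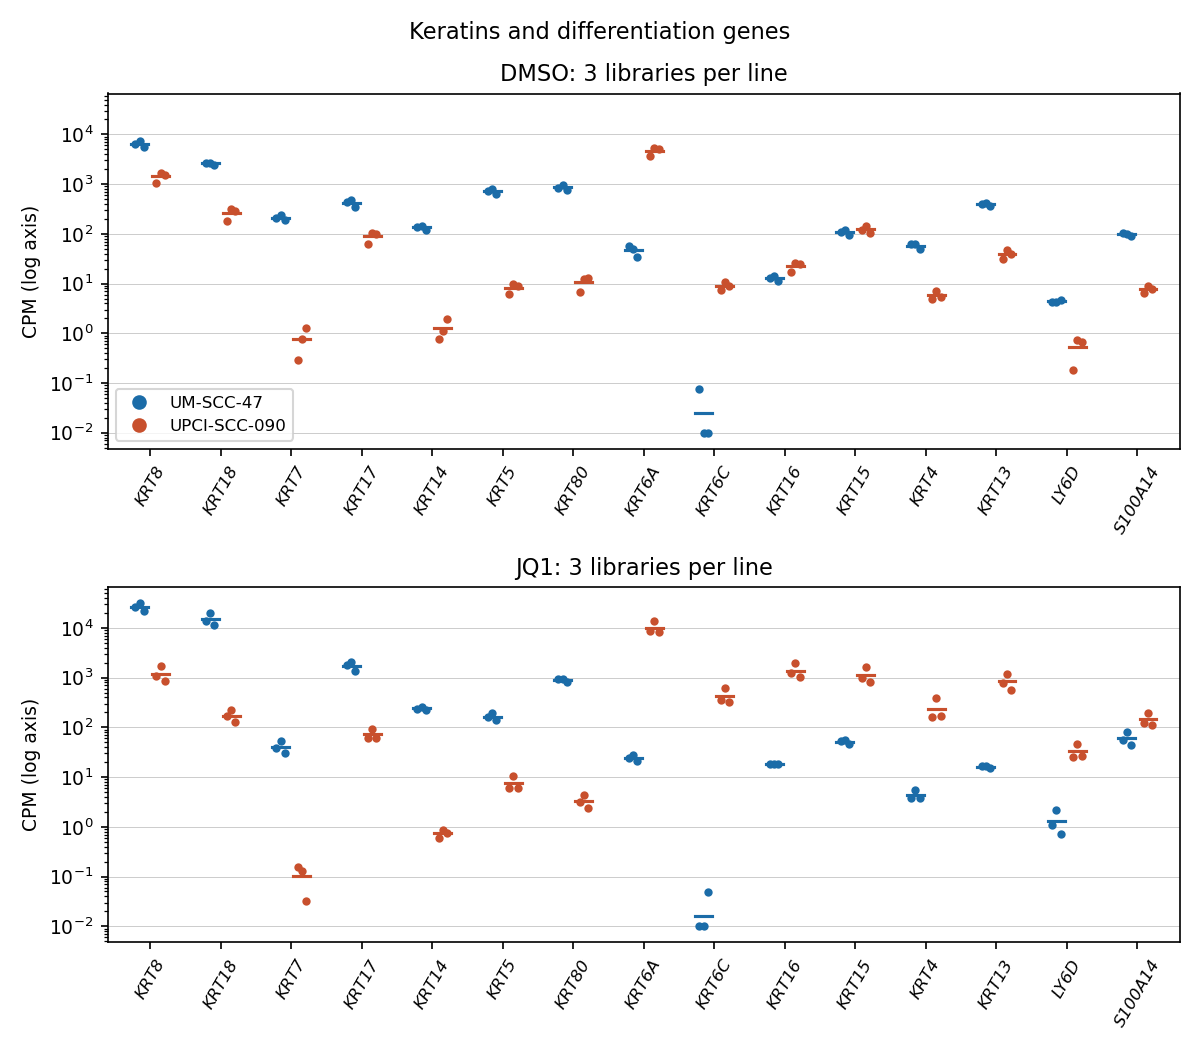
CPM (log axis) of keratins and differentiation genes with DMSO (upper panel) and JQ1 (lower panel), with 1 point per library, 3 per line and treatment, and a bar at the mean, with libraries without a count drawn at 0.01 CPM and each panel scaled on its own. KRT4, KRT13, LY6D and S100A14 are higher in UM-SCC-47 in the upper panel and higher in UPCI-SCC-090 in the lower panel, while KRT8, KRT18 and KRT14 keep their order.

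Outside the keratins LY6D, a surface marker of squamous differentiation, differed by -3.06 with DMSO and by 4.62 with JQ1, at 1.09, 2.19 and 0.728 CPM in UM-SCC-47 and 25.1, 46.8 and 26.6 CPM in UPCI-SCC-090 (change 7.67, adjusted p = 0.000308). CRABP2, a carrier of retinoic acid, went from -4.06 to 1.74 (change 5.79) and S100A14, a calcium-binding protein of epithelia, from -3.64 to 1.27 (change 4.90), but the smaller JQ1 differences of these genes lost their call without UM-SCC-47 replicate 1 (1.68, adjusted p = 0.0745 and 1.20, adjusted p = 0.117) or replicate 3 (1.56, adjusted p = 0.059 and 1.09, adjusted p = 0.0874), and S100A14 also without UPCI-SCC-090 replicate 1 (1.37, adjusted p = 0.0629). Of 12 S100 genes tested, 7 were higher in UPCI-SCC-090 and 2 in UM-SCC-47 with JQ1, against 2 and 5 with DMSO, and 6 changed toward UPCI-SCC-090. The 2 became 1 when any single JQ1 library was left out. Without UM-SCC-47 replicate 1 the count of 7 fell to 4. S100A2, a nuclear S100 protein, stood at 31.8, 50.1 and 26.8 CPM in UM-SCC-47 and 2244, 3257 and 1727 CPM in UPCI-SCC-090 (6.05, SE 0.43).

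The cornified envelope is the cross-linked protein shell of the outermost squamous cells. Of 17 listed genes tested with JQ1, 9 were higher in UM-SCC-47 and 5 in UPCI-SCC-090, and the line difference changed toward UPCI-SCC-090 for 11 listed genes. IVL, involucrin, remained higher in UM-SCC-47, at 4.09, 3.44 and 3.74 CPM against 0.974, 1.29 and 0.821 CPM, but by less (-6.68 with DMSO, -1.87 with JQ1, change 4.82, adjusted p = 0.000314). SLPI, a secreted protease inhibitor, narrowed likewise from -6.89 to -2.34. LYPD3 and CALML3 were higher in UPCI-SCC-090, LYPD3 at 144, 239 and 91.2 CPM against 14.9, 18.5 and 12.7 CPM (3.37) and CALML3 at 638, 1081 and 519 CPM against 39, 42.6 and 26.6 CPM (4.37). SCEL, sciellin, was at 8.11, 2.13 and 17.4 CPM in UM-SCC-47 and 0.122, 0.0858 and 0.158 CPM in UPCI-SCC-090. Several promoters of this gene group are known to carry elements for AP-1, the FOS and JUN dimer, and those of IVL and SCEL are shown for the 150 bases before their starts (RefSeq, GRCh38.p14), with TGANTCA in capitals.
IVL, chr1:152908396-152908545, plus strand: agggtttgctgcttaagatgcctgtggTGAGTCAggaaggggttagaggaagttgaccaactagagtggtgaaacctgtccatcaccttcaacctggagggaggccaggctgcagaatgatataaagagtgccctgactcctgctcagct
SCEL, chr13:77535556-77535705, plus strand: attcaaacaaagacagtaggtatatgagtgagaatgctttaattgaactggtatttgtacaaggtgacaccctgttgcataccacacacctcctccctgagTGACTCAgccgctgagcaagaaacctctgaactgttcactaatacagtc
The motif was present in the 250 bases before the start for 19 of 33 listed cornified envelope genes with a RefSeq promoter (57.6%) and in 2308 of 35116 promoters (6.57%). Among those with a promoter it was present for 5 of the 6 that were higher in UM-SCC-47 with JQ1 and for 0 of the 4 higher in UPCI-SCC-090. The former had 10 promoters searched and the latter 4, so these small counts are not on an equal footing. A match of letters is again a description and not a bound site, and its part in the line difference was not tested.

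Receptors and ligands of the EGFR family lay on both sides. EGFR, the epidermal growth factor receptor, stood at 422, 239 and 521 CPM in UM-SCC-47 and 65.4, 31 and 77 CPM in UPCI-SCC-090 (-2.77, SE 0.45, adjusted p = 0.00185), its ligand TGFA differed by -2.33 (SE 0.29) and the ERBB3 ligand NRG1 by -2.89 (SE 0.40). LRIG1 and LRIG3, transmembrane regulators of these receptors, lay on the other side at 39.2, 65.4 and 25.4 and 95.9, 88.2 and 91.7 CPM in UPCI-SCC-090 against 1.27, 1.31 and 0.922 and 7.48, 7.16 and 7.67 CPM in UM-SCC-47. ERBB2 and ERBB3 were not called (0.13, SE 0.41, and 0.44, SE 0.33).

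Notch pathway genes were higher in UPCI-SCC-090 at 9 of 20 tested and in UM-SCC-47 at 2, beside 13.8% and 18% of all genes. The 2 became 1 without UM-SCC-47 replicate 1 or 2 or without UPCI-SCC-090 replicate 2 or 3. The receptor NOTCH3 differed by 3.39 (SE 0.53), the ligand JAG1 by 2.35 (SE 0.29) and the target HEY1 by 8.70 (SE 0.47), with HEY1 at 0.458, 0.328 and 0.194 CPM in UM-SCC-47 and 141, 162 and 119 CPM in UPCI-SCC-090. HES5, another target, separated the lines with JQ1 alone, at 0.282, 0.219 and 0.0485 CPM and 7.7, 17.3 and 4.99 CPM (change 5.38, adjusted p = 0.00254), whereas HES1 was not called (0.009, SE 0.34). The receptor NOTCH1 was called with DMSO (2.21) but not with JQ1 (1.40, SE 0.54), and its change was not called (adjusted p = 0.512). Without UPCI-SCC-090 replicate 3 it was called with JQ1 (1.77, adjusted p = 0.0199), as it was with the GC correction (1.47, adjusted p = 0.00788). Of 9 Hedgehog genes tested 5 were higher in UPCI-SCC-090, among them the signal transducer SMO at 20.1, 31.5 and 10.7 CPM against 1.41, 1.31 and 1.36 CPM, and GLI2 alone was higher in UM-SCC-47 (-4.37).

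Wnt and BMP genes were found on both sides. WNT5A, a ligand of noncanonical Wnt signalling, stood at 18.2, 11 and 19.1 CPM in UPCI-SCC-090 with 1 count in UM-SCC-47, and LEF1, a nuclear effector, at 12, 13.4 and 10.9 CPM against 0.0705, 0.109 and 0.0971 CPM. The secreted antagonists SFRP1 and DKK1 were higher in UM-SCC-47 (-4.92 and -9.50). BMP7 stood at 51, 84.4 and 31.9 CPM in UPCI-SCC-090 against 0.353, 0.437 and 0.0971 CPM, and BMP4 at 84.4, 95.6 and 61.6 CPM in UM-SCC-47 against 0, 0.129 and 0.0316 CPM. Each of these ligands was kept. The retinoid pathway was split as well, since ALDH1A3, which makes retinoic acid, stood at 3582, 3783 and 3529 CPM in UM-SCC-47 and 3.59, 2.79 and 3.22 CPM in UPCI-SCC-090 (-10.14, SE 0.35) and its relative ALDH1A2 was higher in UPCI-SCC-090 (7.05).

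Of 50 proliferation genes tested 36 were not called, 12 were higher in UPCI-SCC-090 and 2 in UM-SCC-47, so that 28% were called beside 31.8% of all genes. The 12 fell to 5 without UM-SCC-47 replicate 1. The 2 were CCND1, cyclin D1, at 124, 115 and 97.3 CPM in UM-SCC-47 and 2.74, 3.82 and 2.12 CPM in UPCI-SCC-090 (-5.28, SE 0.39, adjusted p = 4.86e-05), and its partner kinase CDK6, at 24, 16.2 and 85.5 CPM and 0.578, 0.3 and 0.979 CPM (-6.06, SE 0.85). The sister kinase CDK4 was higher in UPCI-SCC-090 (1.61, SE 0.33), as were the replication helicase subunits MCM2, MCM3 and MCM7, by 1.94, 1.48 and 1.48. The mitotic markers MKI67 and TOP2A varied widely between libraries of a line, MKI67 at 0.74, 0.601 and 6.36 CPM and 1.83, 0.429 and 0.884 CPM and TOP2A at 6.88, 0.875 and 32.2 CPM and 12.4, 4.85 and 47.9 CPM, and were not called. TOP2A was lowest in replicate 2 and highest in replicate 3 of both lines. CDKN2A, the p16 gene whose protein marks HPV-positive tumors, was at 413, 499 and 249 CPM and 228, 332 and 195 CPM (-0.62, SE 0.35) and CDKN1A, p21, at 982, 1196 and 779 CPM and 1652, 2454 and 1269 CPM (0.86, SE 0.32), and neither was called. CDKN1A was called without UM-SCC-47 replicate 2 (1.06, adjusted p = 0.031) or UPCI-SCC-090 replicate 3 (1.06, adjusted p = 0.0405) and with the GC correction (0.95, adjusted p = 0.00312). Of 16 tested genes known from HPV-positive tumors, many of them germ cell genes, 9 were higher in UPCI-SCC-090 and 1 in UM-SCC-47 (2 without UPCI-SCC-090 replicate 2), while the meiotic genes SYCP2 and SMC1B were not called (-0.14, SE 0.55, and 0.12, SE 0.85).

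Of 23 tested genes of BET proteins, P-TEFb and their read-outs, 4 were higher in UPCI-SCC-090 and 2 in UM-SCC-47, so that 26.1% were called beside 31.8% of all genes. The 2 became 1 without UM-SCC-47 replicate 1 or 3, and the 4 became 8 with the GC correction. BRD2 and BRD3 differed by 0.78 (SE 0.32) and 0.60 (SE 0.35), and were not called, but BRD2 was called without UPCI-SCC-090 replicate 3 (0.98, adjusted p = 0.0458). The P-TEFb kinase CDK9 and its inhibitor HEXIM1, a standard read-out of BET inhibition, were not called either, HEXIM1 at 196, 212 and 165 CPM and 302, 401 and 245 CPM (0.73, SE 0.28, adjusted p = 0.0867). With the GC correction HEXIM1 (0.69, adjusted p = 0.0131), BRD2 (0.70, adjusted p = 0.011), BRD3 (0.51, adjusted p = 0.0423) and CDK9 (0.49, adjusted p = 0.0212) were called higher in UPCI-SCC-090. The MYC family was divided by line. MYC, the oncogenic factor best known as a BET-dependent gene, was higher in UM-SCC-47 at 51, 56.6 and 44.6 CPM against 9.65, 14.4 and 9.34 CPM (-2.19, SE 0.35, adjusted p = 0.00187), MYCL was higher in UPCI-SCC-090 at 79.9, 137 and 59.7 CPM against 19.7, 22 and 16.5 CPM (2.25, SE 0.39), and MYCN stood at 1.77, 3.26 and 1.67 CPM in UPCI-SCC-090 with no count in UM-SCC-47, at least 47.7-fold higher. All 3 were kept.

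Among antioxidant genes of the NRF2 program, 11 of 30 tested were higher in UM-SCC-47 and 7 in UPCI-SCC-090, beside 18% and 13.8% of all genes. TXNRD1, thioredoxin reductase, stood at 2113, 2446 and 2292 CPM in UM-SCC-47 and 175, 95.1 and 174 CPM in UPCI-SCC-090 (-3.94, SE 0.34). GPX2, the glutathione peroxidase of epithelia, stood at 184, 271 and 148 CPM in UPCI-SCC-090 against 0, 0.328 and 0.243 CPM, a difference of 10.13 that had been 3.64 with DMSO (change 6.50, adjusted p = 0.000612). The aldo-keto reductases AKR1C1 and AKR1C2 were kept on the UPCI-SCC-090 side (6.92 and 9.25), while AKR1C3 was called with JQ1 alone and on the other side, at 6.77, 9.68 and 6.6 CPM in UM-SCC-47 and 0.7, 0.3 and 0.316 CPM in UPCI-SCC-090 (-4.10, change -4.41, adjusted p = 0.000559). These 3 genes are close copies of each other, and reads may be divided among them.

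Some genes lost their call under JQ1. Counting genes called with DMSO and for the interaction but not called with JQ1 and within a log2 difference of 1 there, 98 had been higher in UPCI-SCC-090 and 87 in UM-SCC-47. LGALS3, galectin 3, stood at 406, 430.4 and 395 CPM in UM-SCC-47 and 43.1, 44.5 and 54.1 CPM in UPCI-SCC-090 with DMSO and at 283, 393 and 248 CPM and 525, 668 and 476 CPM with JQ1 (change 3.98, adjusted p = 3.86e-05). AQP3, the glycerol channel of keratinocytes, went from -2.99 to 0.63, and TGM1, the transglutaminase that cross-links the cornified envelope, from -2.24 to 0.75. FBN1, fibrillin 1, had been higher in UPCI-SCC-090 by 3.70 and differed by -0.99 (SE 0.36) with JQ1. In none of these 4 genes did the libraries of the lines overlap with JQ1, which held for 46.1% of all genes tested. LGALS3 was called with JQ1 without UM-SCC-47 replicate 2 (1.13, adjusted p = 0.0156). With the GC correction all 4 were called on the side opposite to DMSO, LGALS3 at 0.85, adjusted p = 0.0271, AQP3 at 0.73, adjusted p = 0.016, TGM1 at 0.83, adjusted p = 0.00859 and FBN1 at -1.02, adjusted p = 0.0336, so that they count there as reversed and not as lost. Conversely, 72 genes higher in UPCI-SCC-090 and 84 higher in UM-SCC-47 were called with JQ1 and for the interaction but lay within a log2 difference of 1 and were not called with DMSO. Besides KRT15, GRHL3, LYPD3 and HES5 these included EGR1, an early response factor, at 0.917, 0.929 and 0.922 CPM in UM-SCC-47 and 9.8, 17.4 and 8.24 CPM in UPCI-SCC-090, and, on the UM-SCC-47 side, the cytolinker PLEC at 222, 179.8 and 245 CPM against 15.2, 11.1 and 3.16 CPM and the matrix proteoglycan HSPG2 at 180.2, 162 and 193 CPM against 22, 8.62 and 2.75 CPM.

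**Figure D5:**
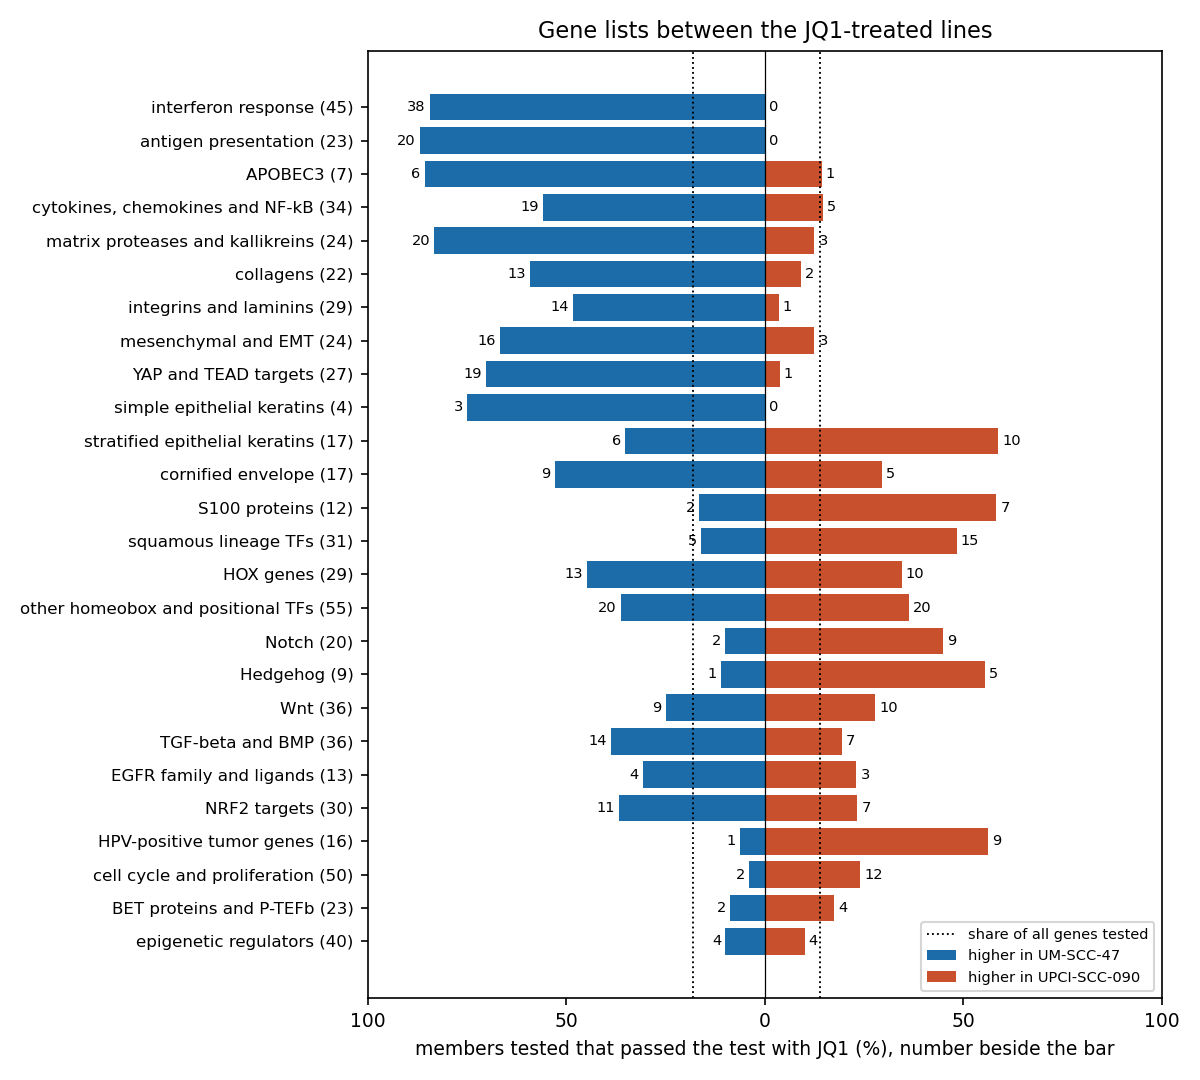
Share of the tested members of each gene list that were higher in UM-SCC-47 (left) or UPCI-SCC-090 (right) with JQ1, in percent, with the number of members beside each bar and the number tested in parentheses. Dotted lines mark the shares over all genes, 18% and 13.8%, and interferon response, with 38 of 45 on the left, stands opposite to squamous lineage factors, with 15 of 31 on the right.

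The difference also varied along the chromosomes. In 231 windows of 10 Mb with at least 20 tested genes, the median log2 difference with JQ1 ran from -1.69 to 1.00, and over windows it had a Pearson r of 0.892 with the median of the DMSO libraries, a description since windows share libraries and lines. The lowest window lay on chromosome 2, with 9 of its 23 genes higher in UM-SCC-47 and 1 in UPCI-SCC-090. By chromosome the medians ran from -0.75 on chromosome 13 to 0.39 on chromosome 19. Copy number was not analysed here, and its part in the line difference was not tested.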

How the data were processed

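Total RNA was depleted of ribosomal RNA and made into stranded libraries, each run on 2 lanes. The authors deposited estimated counts per gene, made with Salmon from transcript abundances and not normalized, for 20738 genes with 1 column per library. Salmon 0.8.2 and DESeq2 1.28.0 are the versions in the submitters' processing notes, whereas the study's methods name later versions of both. Which of them made the deposited counts is not settled, and no source used here gives the transcript index. Estimated counts of near-identical genes can be shared out between them.

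Estimated counts were rounded to whole numbers. Line differences were fitted in R 4.3.3 with edgeR 4.0.16 (quasi-likelihood F test, TMM scaling, filterByExpr with a minimum count of 10 and a minimum total of 15, Benjamini-Hochberg over all genes tested, threshold 0.05), separately for the 6 JQ1 and the 6 DMSO libraries, and the change of the difference over all 12. The alternatives were other scalings, no filter, DESeq2 1.42.0, a fit over all 12 libraries, a replicate block, a GC correction and leaving out libraries. With JQ1 the test may miss many of the smaller differences, and the share of false calls among its calls may be larger than 0.05. Totals per JQ1 library of 20430960 to 30788657 limit low genes, and counting intervals cover counting error only. GC content and chromosomes came from GENCODE release 44 on GRCh37 for 20015 of the 20738 gene IDs, and promoters from RefSeq on GRCh38.p14.

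The comparison, the 51 gene lists and the tests were chosen with earlier results of these data known. Genes were named by size of difference: the top genes over the whole table, up to 4 per list and direction, and the top kept, reversed, lost and gained genes, each with at least 5 CPM. Genes that the study's text names were also allowed. Further list members were named for their known role after their values were seen. Some members of the lists are counted but not reported by name here.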

Additional observations from a re-analysis of the deposited data

Results flagged for a closer look

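The line difference changed with JQ1 for 945 of 14396 genes by the interaction test over all 12 libraries (edgeR quasi-likelihood F test). Values below are the log2 line difference with JQ1 minus that with DMSO, so a positive value is a shift toward UPCI-SCC-090. Without 1 library the count ran from 463 (UM-SCC-47 DMSO replicate 1) to 1775 (UPCI-SCC-090 JQ1 replicate 2).

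Among genes that were higher in UM-SCC-47 with DMSO and higher in UPCI-SCC-090 with JQ1, the change was 9.06 for KRT4, 9.01 for KRT13, 7.67 for LY6D, 5.79 for CRABP2 and 4.90 for S100A14. In the opposite direction it was -3.68 for CCN2 and -3.14 for MMP14.

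Other shifts toward UPCI-SCC-090 were 6.50 for GPX2, 6.06 for APOBEC3A, 5.39 for KRT16, 5.38 for HES5, 5.34 for OAS1, 4.82 for IVL, 4.28 for KRT15, 3.98 for LGALS3, 3.12 for GRHL3, 2.82 for PLAU and 1.05 for CDH1. Shifts toward UM-SCC-47 were -4.71 for FN1, -4.41 for AKR1C3, -3.53 for PSMB8, -3.13 for KRT18, -2.94 for LGALS3BP, -2.30 for KRT8, -1.90 for TFAP2A and -1.48 for CDH2. Of these calls, that of CDH1 was lost in 10 of 21 alternative settings, that of CDH2 in 1 and those of the other genes in 0. The genes listed here are a selection that leaves out most named genes with a less stable change, so this record does not stand for all named genes. The called changes of VIM, KRT14, SOX2, ZNF750, GATA3 and HOXB3, named above, were each lost in more than 1 setting. So were those of AKR1C1, AKR1C2, TXNRD1, MMP11 and PSMB9. Of 84 genes whose called change was followed over the settings, 65 held the call in every one. FOSL1 and DKK1, named above for their JQ1 difference, held a called change in 6 and 9 of 21. Groups of 3 libraries are too small for the test of a single library that stands apart.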

How the results depend on the processing

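No gene named in the text reversed its JQ1 difference or its change past the threshold, but the split of the calls between the lines turned in 1 setting. Of 4231 genes called with JQ1, the other scalings, no filter and DESeq2 gave 4184 to 4755. A fit over all 12 libraries gave 6460 calls, 3448 of them higher in UPCI-SCC-090 and 3012 in UM-SCC-47, so that 53.4% of the calls were higher in that line against 43.4%, and moved the median of all genes to 0.128. The GC correction gave 6850 calls (3386 higher in UPCI-SCC-090), 5458 kept genes and 2636 changed differences. The replicate block gave 6308 calls, 2826 of them higher in UPCI-SCC-090, with 4201 kept genes and 1204 changed differences. Libraries of the same number had correlations of their deviations of -0.126, 0.552 and 0.753 between the lines. Replicate 2 of UM-SCC-47 with replicate 3 of UPCI-SCC-090 had -0.681, and replicate 3 with replicate 2 had -0.648. Replicate 1 of UM-SCC-47 correlated best with replicate 2 of UPCI-SCC-090 (0.276). The main fit did not take the numbers to pair the samples, and an effect shared by libraries of a number was not tested beyond the block. The block with the GC correction gave 7761 calls (3853 higher in UPCI-SCC-090 and 3908 in UM-SCC-47), 5671 kept and 2584 changed. Without both JQ1 replicates 3, 532 differences changed. Leaving out 1 library gave 2888 (without UM-SCC-47 JQ1 replicate 1) to 5202 calls (without UPCI-SCC-090 JQ1 replicate 2), 1065 to 2422 of them higher in UPCI-SCC-090 and 1801 to 2780 in UM-SCC-47, 2565 to 3677 kept genes and 463 (without UM-SCC-47 DMSO replicate 1) to 1775 changed differences (without UPCI-SCC-090 JQ1 replicate 2). With the replicate block AQP3, CDKN1A, CDKN2A, FBN1, HEXIM1, KRT19, LGALS3 and PDIA3, reported above as not called, were called with JQ1. With the GC correction 23 in place of 12 proliferation genes, 33 in place of 17 ribosomal protein genes and 5 in place of 3 of the transcription factors that the study singles out were higher in UPCI-SCC-090, and 12 in place of 6 cholesterol genes in UM-SCC-47. The causes were not tested. Low genes are limited by depth.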

Other observations

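Over all genes tested, 13.8% were higher in UPCI-SCC-090 and 18% in UM-SCC-47 with JQ1, and 22.7% and 25.3% with DMSO. Ribosomal protein genes, which build the translation machinery, were higher in UPCI-SCC-090 with JQ1 at 17 of 78 and in UM-SCC-47 at 0, against 3 and 25 of 78 with DMSO, and the difference shifted toward UPCI-SCC-090 for 18 of them. The 17 became 4, 40 and 11 without UM-SCC-47 JQ1 replicates 1, 2 and 3 and 10 without UPCI-SCC-090 JQ1 replicate 1. Genes of cholesterol and fatty acid synthesis, with 10 of 28 higher in UPCI-SCC-090 and 3 in UM-SCC-47 with DMSO, had 3 and 6 with JQ1 (1 in place of 3 without JQ1 replicate 1 of either line), both JQ1 counts being near those shares, and the difference shifted toward UM-SCC-47 for 8. Hypoxia and glycolysis genes were higher in UM-SCC-47 at 14 of 33 with JQ1 and at 24 of 34 with DMSO, and the 14 fell to 8 without UM-SCC-47 JQ1 replicate 1 and to 9 without UPCI-SCC-090 JQ1 replicate 1. Among clustered protocadherins, neuronal adhesion molecules that are close copies of each other, 8 of 13 tested were higher in UPCI-SCC-090 and 3 in UM-SCC-47 (1 without UM-SCC-47 JQ1 replicate 1), and 10 were kept.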
